A study of Mus musculus with 60 samples.

Results

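Kidney expression was followed for 9 genes that act at cell cycle checkpoints or are induced by p53: Cdkn1a, Cdkn1b, Wee1, Ccnd1, Ccng1, Mdm2, Gadd45a, Myc and Trp53inp1. They were chosen by name, with earlier results of these data known, and their rows were found by matching Ensembl identifiers to GENCODE symbols. Their counts of calls, set beside the shares of all genes, are therefore a description. All 9 were among the 15546 genes tested, of 55335 gene identifiers in the count files. The study deleted the clock gene Bmal1 (Arntl) in the renal tubule of male C57BL/6J mice and measured kidney RNA around the day.

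The 60 kidneys came from 60 mice, 5 in each of 12 groups, defined by genotype and by zeitgeber time, ZT0, ZT4, ZT8, ZT12, ZT16 or ZT20, where ZT0 is lights on and ZT12 is lights off under 12 h of light and 12 h of dark. The cKOt mice carried Bmal1 lox/lox, Pax8-rtTA and LC-1 Cre, and the control mice were littermates labelled Bmal1 lox/lox. Both genotypes drank doxycycline at 2 mg/ml with 20 mg/ml of sucrose for 2 weeks from the age of 8 weeks, and kidneys were collected about a month later, so the controls share the floxed allele and the drug but not the Cre. Pax8-rtTA switches the Cre on along the renal tubule, which leaves Bmal1 intact in vessels, interstitial cells and immune cells. The labels name the tissue as renal tubule, whereas the methods describe frozen half-kidneys, and markers of podocytes, endothelium, fibroblasts and macrophages were all detected. In such bulk samples, fewer cells of a type and less RNA per cell cannot be told apart.

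The libraries held 17791420 to 20906706 counts in genes, and no 2 mice of a group agreed within sampling noise. Arntl itself checked the labels: in control kidneys it ran from 2.73 ± 0.824 CPM (mean ± SD, n = 5; CPM are normalised counts, scaled to a common library size) at ZT8 to 48.4 ± 10.2 CPM at ZT0, and in cKOt kidneys it stayed between 17.4 ± 2.01 CPM at ZT12 and 24.4 ± 1.56 CPM at ZT0. In the mean over the day Arntl was higher in cKOt kidneys (log2 fold change 0.71 ± 0.091, SE, adjusted p = 2.22e-09, edgeR). Its difference varied with time (interaction adjusted p = 4.86e-16), so the check rests on the flattened time course. The counts cover the whole gene, so transcripts that lack the floxed part are still counted. The mice came from 6 library batches of 9 to 12 samples, with both genotypes in each. One cKOt library at ZT16, replicate 4, is marked for removal in the sample table of the study, and it was kept here, with values without it given where a call of the 9 genes differs.

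Progress through the cell cycle is driven by cyclin-dependent kinases (CDKs). Cyclin D1, encoded by Ccnd1, activates CDK4 and CDK6 in G1, and the MYC transcription factor promotes growth and cell cycle entry. The inhibitors p21 (Cdkn1a) and p27 (Cdkn1b) hold CDKs back, and the WEE1 kinase delays mitosis by phosphorylating CDK1. The tumour suppressor p53 induces p21 after DNA damage, together with Mdm2, whose product marks p53 for degradation, Ccng1 (cyclin G1), Gadd45a, a stress response gene, and Trp53inp1, a p53-induced stress protein. Wee1, Cdkn1a and Myc are also known as outputs of the circadian clock: BMAL1 with CLOCK binds E-boxes in Wee1, and REV-ERB and ROR act on the Cdkn1a promoter. Most cells of the adult renal tubule do not divide.

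The promoter windows are shown first because they set the letters before the start of Cdkn1a, which moved most, beside those of Ccng1 and Mdm2, p53 targets that moved little. RefSeq windows on GRCm38.p6, from 250 bases before to 50 bases after the start of transcription, were at hand for 5 of the 9 genes, Cdkn1a (with 2 starts), Cdkn1b, Ccng1, Mdm2 and Gadd45a. Wee1, Ccnd1, Myc and Trp53inp1 had no entry. The 250 bases before the start are printed 5′ to 3′ on the strand of the gene for chr17:29090729-29090978 and chr17:29093519-29093768 (Cdkn1a, plus strand, starts 2790 bases apart), chr11:40755287-40755536 (Ccng1, minus strand) and chr10:117710759-117711008 (Mdm2, minus strand), with matches to the p53 half-site in capitals.
Cdkn1a, upstream start: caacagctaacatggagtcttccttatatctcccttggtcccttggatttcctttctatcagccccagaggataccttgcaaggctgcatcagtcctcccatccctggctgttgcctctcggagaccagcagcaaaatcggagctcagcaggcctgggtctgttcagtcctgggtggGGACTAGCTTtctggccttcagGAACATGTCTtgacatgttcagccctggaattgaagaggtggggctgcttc
Cdkn1a, downstream start: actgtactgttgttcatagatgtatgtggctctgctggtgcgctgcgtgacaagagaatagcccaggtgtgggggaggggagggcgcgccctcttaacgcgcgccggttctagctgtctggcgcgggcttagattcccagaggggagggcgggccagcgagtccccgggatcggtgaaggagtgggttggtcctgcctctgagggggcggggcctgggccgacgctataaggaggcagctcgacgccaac
Ccng1: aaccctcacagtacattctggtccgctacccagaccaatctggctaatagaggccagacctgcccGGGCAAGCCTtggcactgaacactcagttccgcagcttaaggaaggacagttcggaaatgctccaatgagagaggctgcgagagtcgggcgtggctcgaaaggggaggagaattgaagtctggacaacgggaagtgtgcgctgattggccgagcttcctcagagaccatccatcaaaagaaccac
Mdm2: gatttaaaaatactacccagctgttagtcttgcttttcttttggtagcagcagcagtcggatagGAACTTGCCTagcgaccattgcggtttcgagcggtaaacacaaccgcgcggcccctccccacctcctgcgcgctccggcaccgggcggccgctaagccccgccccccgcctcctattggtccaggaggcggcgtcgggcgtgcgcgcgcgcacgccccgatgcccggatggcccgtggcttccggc
The half-site was found in the upstream Cdkn1a window at 73 and 51 bases before the start, at 185 bases in Ccng1, at 186 in Mdm2 and at 40 in Gadd45a, and neither in the downstream Cdkn1a window nor in Cdkn1b. That is 4 of 6 windows, where 8.36% of the 32851 promoter windows in the table held a match on either strand. The genes had been listed as p53 targets, so this share is a description. None of the 6 windows held CACGTG (in 7.15% of all windows), CACGTT (4.68%), TTATGTAA (0.938%), TTACGTAA (0.119%) or AGGTCA (16.3%), which says only that these letters are not in these windows.

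The first question was how deletion of Bmal1 in the tubule changed the level of these genes over the whole day. Cdkn1a was 3.40-fold higher in cKOt than in control kidneys and Myc 1.67-fold higher, while Ccnd1 stood at 0.50 and Wee1 at 0.561 of the control level. The other 5 genes lay within a narrow band, from 0.898 of control for Gadd45a to 0.963 for Cdkn1b. In the mean over the 6 time points, 8 of the 9 genes passed an adjusted p of 0.05 (edgeR quasi-likelihood test), 2 higher (Cdkn1a and Myc) and 6 lower (Ccnd1, Wee1, Trp53inp1, Mdm2, Ccng1 and Cdkn1b). Of all genes tested 50.0% passed, 26.8% higher and 23.2% lower. The 2 of 9 that were higher lie near the share of all genes, and the 8 of 9 that passed and 6 of 9 lower lie above theirs. With genes chosen by name and earlier results known, these counts are a description. Of the 6 lower, the calls of Cdkn1b, Ccng1 and Trp53inp1 depended on the processing, as given below. The median absolute log2 fold change was 0.16 among the 9 genes and 0.10 among all genes. A change at least as large as that of Cdkn1a was found in 0.521% of all genes, and the shares for Ccnd1, Wee1 and Myc were 1.91%, 2.82% and 3.29%. For Cdkn1b, Ccng1 and Mdm2 the shares were 70.2%, 59.8% and 50.9%.

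**Figure D1:**
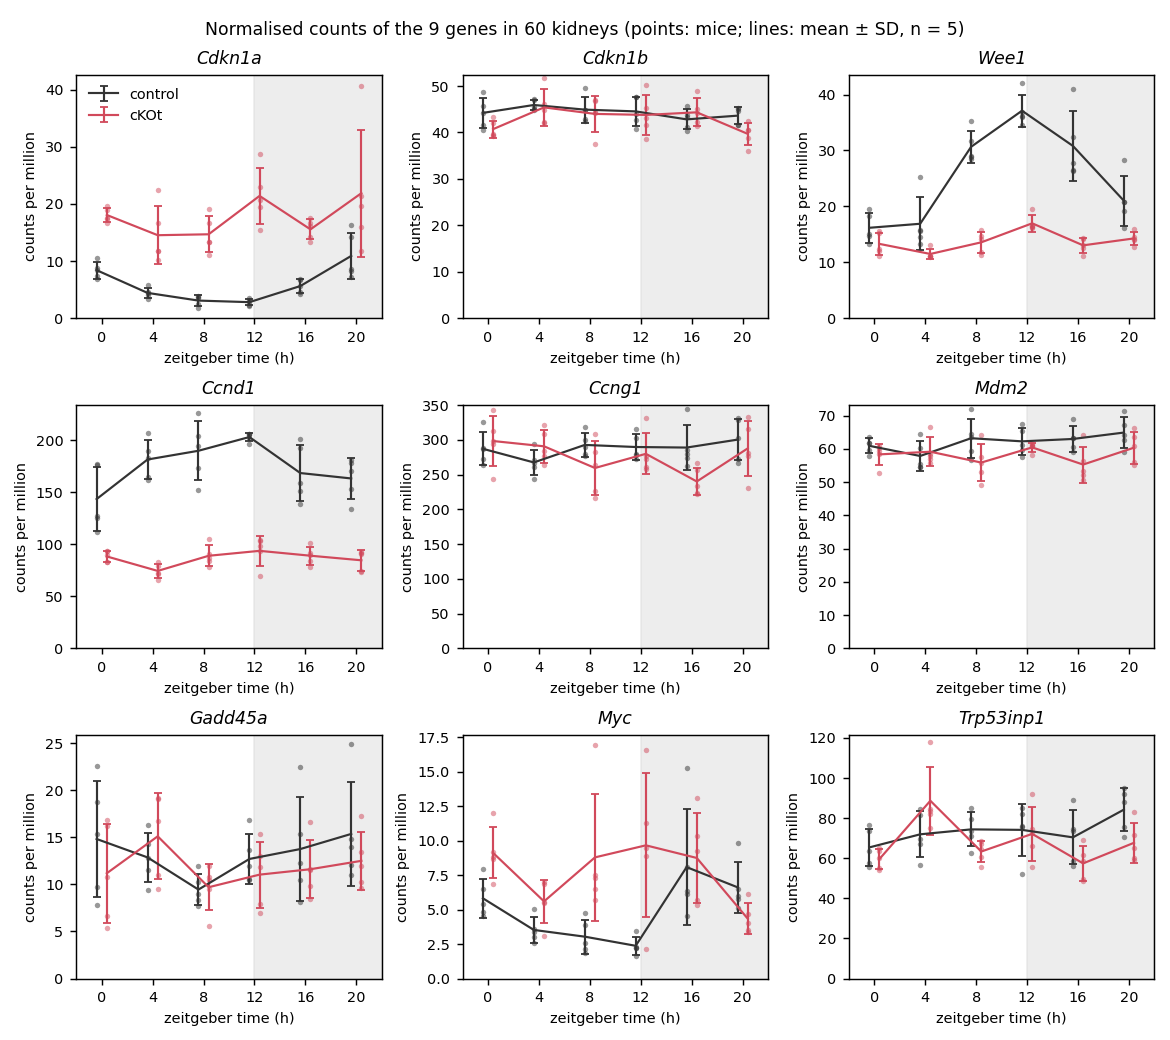
Normalised counts (CPM, y axis) of the 9 genes against zeitgeber time in hours (x axis), with 1 point per mouse and lines for mean ± SD of 5 control (black) or 5 cKOt (red) mice; grey marks the dark phase. Cdkn1a of cKOt mice lies above every control mouse at 5 of 6 time points and Ccnd1 below every control mouse at all 6, and the Wee1 peak of control mice at ZT12, 37.1 CPM, is 16.9 CPM in cKOt mice.

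Cdkn1a (ENSMUSG00000023067, chr17:29090976-29100727, plus strand) encodes p21. Its mean log2 fold change over the day was 1.77 ± 0.093 (SE, adjusted p = 2.8e-23). At ZT0 the control mice had 6.83, 7.30, 8.50, 8.77 and 10.6 CPM and the cKOt mice 16.7, 17.4, 17.6, 19.0 and 19.6 CPM. At ZT4 the control values were 3.40, 3.98, 4.34, 4.55 and 5.83 CPM against 10.1, 11.7, 11.8, 16.6 and 22.4 CPM in cKOt. At ZT8 they were 1.71, 2.54, 3.59, 3.67 and 3.86 CPM against 11.1, 13.3, 13.3, 16.6 and 19.1 CPM. Through the light phase the controls declined and the cKOt mice stayed above 10 CPM, with no overlap at any of these times. At ZT12 the control mice reached their lowest values, 2.18, 2.36, 2.81, 3.19 and 3.45 CPM, while the cKOt mice had 15.4, 19.4, 20.6, 22.9 and 28.7 CPM. At ZT16 the values were 4.22, 4.64, 5.68, 6.76 and 6.78 CPM in controls and 13.3, 14.2, 16.1, 16.6 and 17.5 CPM in cKOt. At ZT20 controls had 7.12, 8.21, 8.64, 14.2 and 16.3 CPM and cKOt mice 11.8, 16.0, 19.6, 21.3 and 40.7 CPM. Only at ZT20 did the groups overlap, with 2 control mice above the lowest cKOt mouse and 1 cKOt mouse far above the rest.

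The genotype difference in Cdkn1a passed at all 6 time points and changed in size between them (interaction adjusted p = 7.65e-05). It was smallest at ZT20, with a log2 fold change of 0.92 ± 0.21 (SE, 1.90-fold, adjusted p = 0.000968), and ZT0 followed with 1.11 ± 0.21. It was 1.92 ± 0.24 at ZT4, 2.20 ± 0.24 at ZT8 and 1.49 ± 0.22 at ZT16. The largest difference was at ZT12, 2.96 ± 0.24 or 7.80-fold (adjusted p = 1.45e-14). Within each of the 6 library batches, with time as a covariate, the difference was positive, from 1.41 to 3.00 on the log2 scale. Ordered by mean level, the 6 cKOt groups came first and the 6 control groups after them, but the lowest cKOt group (ZT4, 14.5 ± 5.04 CPM) and the highest control group (ZT20, 10.9 ± 4.08 CPM) did not differ beyond their SD, and 4 of the 11 gaps between neighbours exceeded the larger SD.

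Wee1 (ENSMUSG00000031016, chr7:110122046-110143286, plus strand), the kinase that restrains entry into mitosis, moved the other way. Its mean log2 fold change was -0.83 ± 0.051 (SE, adjusted p = 1.75e-20). At ZT0 the control mice had 13.2, 14.7, 15.1, 18.2 and 19.6 CPM and the cKOt mice 11.2, 12.0, 12.4, 15.3 and 15.5 CPM, an overlap. At ZT4 the values were 13.3, 14.6, 15.5, 15.8 and 25.2 CPM against 10.9, 11.1, 11.1, 11.2 and 13.1 CPM, with 1 control mouse standing high. At ZT8 they were 28.4, 28.9, 29.0, 31.6 and 35.3 CPM against 11.3, 11.9, 14.1, 14.7 and 15.8 CPM. Between ZT4 and ZT8 the control mean went from 16.9 to 30.6 CPM and the cKOt mean from 11.5 to 13.6 CPM. At ZT12 controls had 34.6, 35.9, 36.2, 36.8 and 42.0 CPM and cKOt mice 16.1, 16.3, 16.4, 16.4 and 19.6 CPM. At ZT16 the values were 26.3, 26.5, 27.8, 32.4 and 41.0 CPM against 11.1, 12.5, 13.0, 14.1 and 14.4 CPM. At ZT20 they were 16.1, 19.2, 20.7, 20.7 and 28.3 CPM against 12.7, 13.9, 14.2, 14.6 and 15.9 CPM. From ZT4 to ZT20 the highest cKOt mouse did not reach the lowest control mouse.

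The Wee1 difference also varied with time (interaction adjusted p = 0.00015). It was -0.28 ± 0.13 at ZT0 (log2 fold change ± SE), which did not pass (adjusted p = 0.146), -0.66 ± 0.14 at ZT4 and -0.53 ± 0.13 at ZT20. At ZT8, ZT12 and ZT16 it was -1.15 ± 0.12, -1.15 ± 0.12 and -1.23 ± 0.12, the last with an adjusted p of 2.3e-11. It was negative in all 6 batches, from -0.95 to -0.38. In the order of group means, control ZT12 (37.1 ± 2.86 CPM), ZT16 and ZT8 came first, with ZT16 and ZT8 not separated beyond their SD, and the control groups at ZT4 and ZT0 (16.9 ± 4.74 and 16.1 ± 2.66 CPM) lay beside the highest cKOt group (ZT12, 16.9 ± 1.49 CPM).

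Ccnd1 (ENSMUSG00000070348, chr7:144929931-144939925, minus strand), cyclin D1, had a mean log2 fold change of -1.0 ± 0.042 (SE, adjusted p = 2.23e-27). Among Cdkn1a, Myc, Wee1 and Ccnd1, its difference varied least between time points. At ZT0 the control mice had 112, 125, 127, 176 and 177 CPM and the cKOt mice 82.7, 82.8, 89.5, 93.1 and 93.3 CPM. At ZT4 the values were 162, 165, 183, 190 and 207 CPM against 65.5, 71.7, 72.6, 79.2 and 82.9 CPM. At ZT8 they were 152, 173, 194, 204 and 226 CPM against 78.4, 83.7, 86.5, 91.0 and 105 CPM. The control mice spread more widely than the cKOt mice at these 3 times, yet no values overlapped. At ZT12 controls had 196, 202, 205, 206 and 206 CPM and cKOt mice 69.4, 93.6, 98.3, 103 and 104 CPM. At ZT16 the values were 139, 151, 159, 192 and 201 CPM against 78.3, 84.2, 90.1, 91.3 and 101 CPM. At ZT20 they were 134, 153, 170, 178 and 181 CPM against 73.5, 73.9, 90.7, 91.9 and 92.9 CPM. At all 6 times the highest cKOt mouse was below the lowest control mouse.

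The Ccnd1 difference passed at each time point, from -0.71 ± 0.10 at ZT0 (log2 fold change ± SE) to -1.20 ± 0.11 at ZT4, and its change between time points did not pass (interaction adjusted p = 0.225). Within batches it ran from -1.28 to -0.67. All 6 control groups ranked above all 6 cKOt groups, and among the 5 gaps within the controls none exceeded the larger SD. An exon of Ccnd1 overlaps LTO1 on the opposite strand, a gene with up to 468 counts against 1173 to 4177 for Ccnd1. The kit marks strand, but the strand setting of the counting is not given in the sources used here. Reads in the shared part may have been counted for Ccnd1 or left out as lying in more than 1 gene.

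Myc (ENSMUSG00000022346, chr15:61985391-61990374, plus strand) was higher in cKOt mice in the mean, by 0.74 ± 0.12 (log2 fold change ± SE, adjusted p = 1.18e-06), but its difference changed along the day (interaction adjusted p = 0.000139). At ZT0 the control mice had 4.50, 4.79, 5.38, 6.46 and 7.95 CPM and the cKOt mice 6.85, 8.67, 8.84, 9.19 and 12.0 CPM. At ZT4 the values were 2.58, 2.99, 3.36, 3.62 and 5.07 CPM against 3.07, 5.49, 5.55, 6.86 and 7.0 CPM. At ZT8 they were 1.85, 2.11, 2.57, 3.89 and 4.76 CPM against 5.73, 6.50, 7.30, 7.49 and 16.9 CPM. ZT8 was the only time at which the genotypes did not overlap. At ZT12 controls had 1.66, 2.21, 2.25, 2.32 and 3.43 CPM and cKOt mice 2.11, 8.85, 9.43, 11.3 and 16.6 CPM, so 1 cKOt mouse was at the control level. At ZT16 the values were 4.53, 6.15, 6.33, 8.08 and 15.3 CPM against 5.36, 5.73, 9.22, 10.3 and 13.1 CPM. At ZT20 they were 5.08, 5.76, 5.98, 6.46 and 9.80 CPM against 3.35, 3.55, 4.05, 4.65 and 6.10 CPM, with 4 of 5 cKOt mice below every control mouse.

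In log2 fold change the Myc difference was 1.00 ± 0.33 at ZT4 (SE, adjusted p = 0.0332), 1.38 ± 0.31 at ZT8 (adjusted p = 0.000709) and 2.08 ± 0.32 or 4.21-fold at ZT12 (adjusted p = 1.03e-06). The call at ZT4 was lost without RUVs factors, the estimates of unwanted variation that entered the fit (0.67, adjusted p = 0.164), and without replicate 2, 3 or 4 (adjusted p = 0.0938, 0.11 and 0.171). It was also lost with library batch in place of the factors (adjusted p = 0.17) and with no filter on expression (0.058). At ZT0 the difference was 0.64 ± 0.29, at ZT16 0.07 ± 0.28 and at ZT20 -0.70 ± 0.30, none of which passed (adjusted p = 0.142, 0.903 and 0.125). The within-batch differences were positive in 6 of 6 batches but ranged from 0.02 to 2.31. None of the 11 gaps in the order of its group means exceeded the larger SD. Myc had 29 to 358 counts per library, the fewest of the 9 genes.

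**Figure D2:**
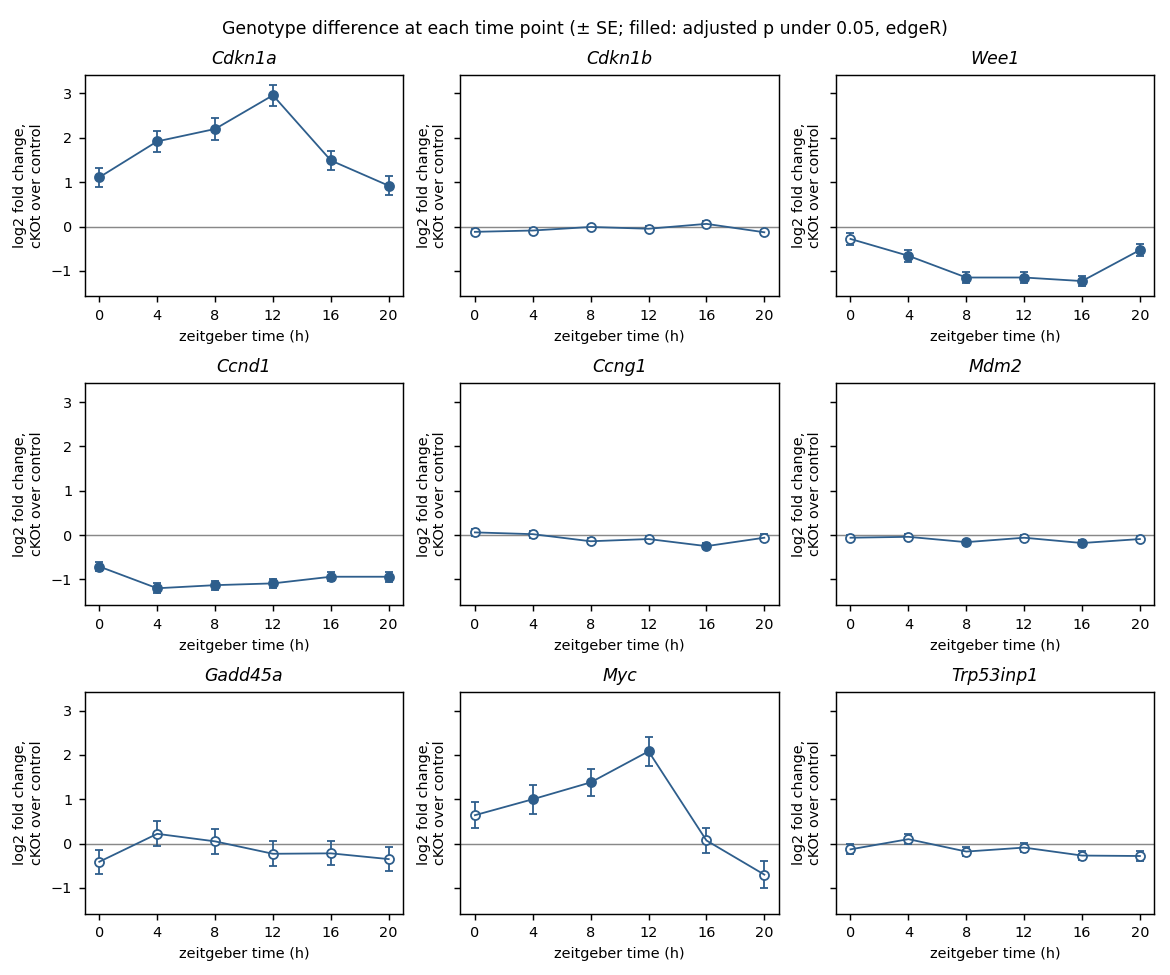
Log2 fold change of cKOt over control (y axis, ± SE) at each zeitgeber time (x axis, hours) for the 9 genes, each point from 5 mice per genotype; filled points passed an adjusted p of 0.05. The differences of Cdkn1a and Myc are largest at ZT12, 2.96 and 2.08, those of Wee1 reach -1.23 at ZT16, those of Ccnd1 run from -1.20 to -0.71, and Cdkn1b, Ccng1, Mdm2 and Trp53inp1 stay near 0.

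The other CDK inhibitor, Cdkn1b (ENSMUSG00000003031, chr6:134920401-134925513, plus strand), which encodes p27, stayed near one level. All 60 mice lay between 36.1 and 51.7 CPM, the genotypes overlapped at every time point, and the mean log2 fold change was -0.05 ± 0.022 (SE, adjusted p = 0.0335). Cyclin G1 (Ccng1, ENSMUSG00000020326, chr11:40748552-40755311, minus strand) ran from 244 to 344 CPM in controls and from 216 to 343 CPM in cKOt mice, with a mean log2 fold change of -0.08 ± 0.03 (adjusted p = 0.027). These differences are small beside the spread of single mice. Ccng1 passed at ZT16 alone (-0.25 ± 0.073, adjusted p = 0.0111), where 4 of 5 cKOt mice were below every control mouse, and this call was lost without replicate 1 or 4 (adjusted p = 0.0776 and 0.0606).

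Mdm2 (ENSMUSG00000020184, chr10:117688875-117710758, minus strand), the p53-induced inhibitor of p53, kept its mean call in every alternative tried, unlike Ccng1 and Trp53inp1. It ran from 54.4 to 72.1 CPM in controls and from 49.1 to 66.6 CPM in cKOt mice, with a mean log2 fold change of -0.10 ± 0.024 (SE, adjusted p = 0.000482), that is, lower where Cdkn1a was higher. At single time points it passed at ZT8 and ZT16 (-0.16 ± 0.059 and -0.18 ± 0.059, adjusted p = 0.0474 and 0.0216), and both calls were lost without the library marked for removal (adjusted p = 0.0501 and 0.0547) and without RUVs factors (0.0715 and 0.0585). The ZT8 call was also lost without replicate 1, 3 or 4 (adjusted p = 0.0712, 0.306 and 0.15) and the ZT16 call without replicate 1, 4 or 5 (0.0606, 0.0577 and 0.194). With library batch as covariate neither passed (0.124 and 0.0916), and the ZT8 call was lost with limma (0.0506) and with no filter (0.0744). Trp53inp1 (ENSMUSG00000028211, chr4:11156431-11174379, plus strand) ran from 52.1 to 95.2 CPM in controls and from 48.4 to 118 CPM in cKOt mice and had a mean log2 fold change of -0.14 ± 0.044 (adjusted p = 0.00718), with no call at a single time point. The mean calls of Cdkn1b, Ccng1 and Trp53inp1 were lost without RUVs factors (adjusted p = 0.156, 0.167 and 0.0707). They were also lost with library batch as covariate (adjusted p = 0.143, 0.14 and 0.0829), and when some replicates were left out: replicate 2 or 4 for Cdkn1b (0.0906 and 0.222), replicate 2, 4 or 5 for Ccng1 (0.0845, 0.153 and 0.0621) and replicate 3 for Trp53inp1 (0.119). Within batches the log2 difference ran from -0.21 to 0.01 for Cdkn1b, from -0.13 to 0.01 for Mdm2 and from -0.33 to 0.12 for Trp53inp1, each negative in 5 of 6 batches.

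Gadd45a (ENSMUSG00000036390, chr6:67035096-67037457, minus strand) passed none of the tests of genotype or time, the only one of the 9 genes of which this holds. It ran from 7.70 to 24.9 CPM in controls and from 5.42 to 19.2 CPM in cKOt mice, its mean log2 fold change was -0.16 ± 0.11 (SE, adjusted p = 0.251), and the genotypes overlapped at each time point. Within batches the difference ran from -1.20 to 0.55 on the log2 scale. Its SE was among the widest, so a difference of this size was not detectable with these mice. Its exons overlap E230016M11Rik on the opposite strand, which had up to 200 counts against 100 to 442 for Gadd45a. Here too, reads in the shared part may have been counted for Gadd45a or left out.

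By time point, 2 of the 9 genes passed at ZT0 (12.1% of all genes did), 4 at ZT4 (12.5%), 5 at ZT8 (19.9%), 4 at ZT12 (21.0%), 5 at ZT16 (19.8%) and 3 at ZT20 (13.8%). Cdkn1a and Ccnd1 passed each time, Wee1 from ZT4 to ZT20, and Myc from ZT4 to ZT12. The interaction of genotype and time passed for 3 of 9, Cdkn1a, Wee1 and Myc, and for 3.08% of all genes. Under each alternative normalization, filter, covariate set and test, and without each replicate in turn, these 3 genes passed the interaction test.

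The next question was whether the genes followed the time of day within a genotype. In control mice 4 of 9 varied between time points, Wee1 (adjusted p = 1.15e-12), Cdkn1a (1.28e-09), Myc (3.39e-05) and Ccnd1 (0.000658), where 30.6% of all genes did. In cKOt mice 5 of 9 passed, Cdkn1b (0.011), Myc (0.0134), Cdkn1a (0.0172), Wee1 (0.0188) and Trp53inp1 (0.0225), where 26.6% of all genes did. The 5 calls in cKOt mice were weak. Without replicate 3 only Trp53inp1 passed. Without replicate 4 none of the 5 passed, and only Ccng1 did (adjusted p = 0.0214, edgeR). Without replicate 1 only Cdkn1a and Cdkn1b of the 5 passed, and Ccnd1 passed beside them (0.0271). Of all genes 3162, 2608 and 3109 passed in these fits, against 4143. The call of Cdkn1a was also lost with limma (adjusted p = 0.0594), without RUVs factors (0.0632) and with library batch (0.0934). That of Cdkn1b was lost with no filter (0.0576) and without RUVs factors (0.0793). Ccng1 missed the threshold in cKOt mice (adjusted p = 0.0525) and passed it in 9 alternatives, among them library batch as covariate (0.0107) and the fit without the library marked for removal (0.0357). Passing in one genotype and not in the other does not show a difference, and of Ccnd1, Cdkn1b and Trp53inp1 none passed the interaction test (adjusted p = 0.225, 0.498 and 0.595).

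A cosine of 24 h was then fitted to each gene under 5 models, rhythm in neither genotype, lost in cKOt, gained in cKOt, unaltered or altered, and a model was assigned when its weight by the Bayesian information criterion was at least 0.65. Amplitudes are peak to trough on the log2 scale. Cdkn1a, Myc and Ccnd1 were assigned to loss of rhythm, with weights of 0.947, 0.914 and 0.785, a model that held 6.25% of all genes. An assignment names the best fit and is not a test. Ccnd1 did not pass the interaction test (adjusted p = 0.225, edgeR). Cdkn1a and Myc passed the time course test in cKOt mice (adjusted p = 0.0172 and 0.0134, edgeR). Cdkn1a peaked at ZT21.3 in controls with an amplitude of 1.96, reached by 0.219% of all genes, and had 0.29 in cKOt mice. Myc peaked at ZT20.0 with 1.61 in controls and had 0.49 in cKOt mice, an amplitude reached there by 11.9% of all genes. Ccnd1 peaked at ZT10.4 with 0.44 in controls and had 0.18 in cKOt mice. The control peak of Cdkn1a thus lay in the late night, and in controls the mean of Wee1 was highest at ZT12, where that of Cdkn1a was lowest. Wee1 was assigned to altered rhythm (weight 0.67, a model with 2.37% of all genes), with a control amplitude of 1.28 at ZT12.5 and 0.33 at ZT14.2 in cKOt mice.

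Ccng1 was assigned to gain of rhythm (weight 0.792, 3.42% of all genes), with amplitudes of 0.07 in controls and 0.20 in cKOt mice. The latter was reached by 46.1% of all genes. Ccng1 did not pass the interaction test (adjusted p = 0.373, edgeR), so a gain is not shown. Mdm2, Gadd45a and Trp53inp1 were assigned to no rhythm, as were 34% of all genes, and Cdkn1b to no model, as were 28.7%. No gene of the 9 was assigned to unaltered rhythm, the model of 25.2% of all genes. The assignments of Cdkn1a and Myc were the same in 12 of 12 alternatives, that of Wee1 in 4, that of Trp53inp1 in 6, that of Ccng1 in 8 and that of Ccnd1 in 10. For the rhythm models, the alternative without the marked library was chosen after seeing the data, and in it Trp53inp1 was left unassigned. The amplitudes of Wee1 and Ccnd1 in cKOt mice were reached by 24.5% and 52.5% of all genes, those in control mice by 0.965% and 16.9%.

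Between genes, levels were compared per kb of exon. In control mice Ccng1 had 81.9 ± 6.83 CPM per kb (SD, n = 30) and Ccnd1 37.1 ± 6.09, each separated from the next gene by more than the larger SD. Mdm2 (12.2 ± 0.906), Trp53inp1 (11.3 ± 1.81), Cdkn1b (9.74 ± 0.548), Gadd45a (7.46 ± 2.52) and Wee1 (7.44 ± 2.59) followed with no such gap between neighbours, and Myc (1.81 ± 1.04) and Cdkn1a (1.65 ± 0.968) came last. In cKOt mice Cdkn1a, at 4.98 ± 1.68 CPM per kb, ranked above Wee1 (4.02 ± 0.636) and Myc (2.84 ± 1.34), with gaps within the SD. Ccnd1, at 18.4 ± 2.28, remained in the second place.

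**Figure D3:**
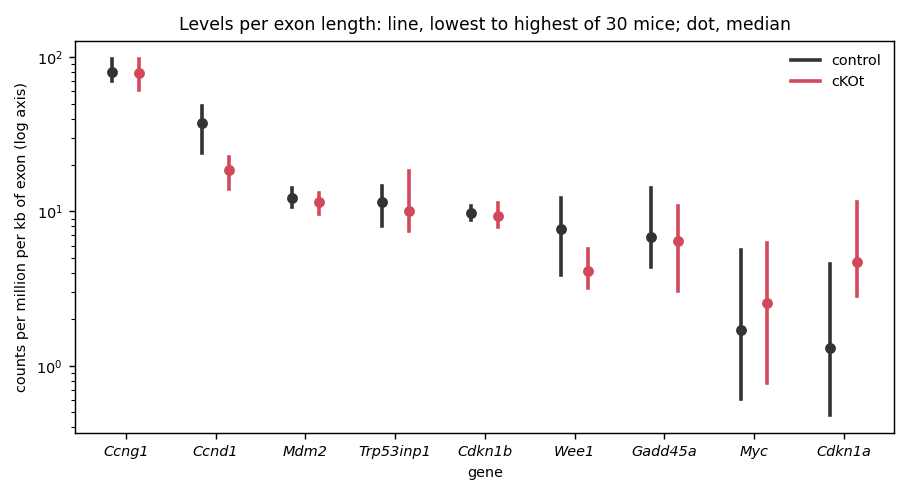
Levels of the 9 genes per exon length (y axis, CPM per kb, log axis) in 30 control (black) and 30 cKOt (red) mice; the line spans the lowest to the highest mouse and the dot is the median. Ccng1 is highest in both genotypes, and Cdkn1a, lowest in control mice, lies above Myc and Wee1 in cKOt mice.

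The genes around these 9 were read from lists of the same pathways, whose counts of genes that passed in the mean stand beside 26.8% higher and 23.2% lower among all genes. Trp53 itself stayed between 21.0 ± 0.939 and 27.7 ± 1.97 CPM (SD, n = 5) in the control groups and between 22.8 ± 2.03 and 27.0 ± 4.36 CPM in the cKOt groups, with a mean log2 fold change of 0.06 ± 0.029 (SE, adjusted p = 0.0739). Of 10 genes in the list of p53 and its regulators, 2 rose and 8 did not pass. They were Mdm4, an inhibitor of p53, at 0.17 ± 0.033 (adjusted p = 2.59e-05), and Trp53bp1, an adaptor of the DNA damage response, at 0.16 ± 0.026 (4.37e-07). None of the 10 passed the interaction test.

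Of 29 other p53 target genes tested, 7 rose, 8 fell and 14 did not pass, with a median log2 fold change of -0.03 beside 0.01 for all genes, and these counts are close to the shares of all genes. The largest changes were Eda2r, a death receptor family member (0.41 ± 0.12, adjusted p = 0.00346), and Psrc1, a spindle protein (0.36 ± 0.16, 0.0478), among those that rose, and Pmaip1, the pro-apoptotic NOXA (-0.57 ± 0.077, 1.16e-08), and Plk3, a polo-like kinase (-0.53 ± 0.12, 0.000162), among those that fell. Each was smaller than the 1.77 of Cdkn1a. The levels of Eda2r and Psrc1 were low, with means of 1.26 and 0.499 CPM. One gene of this list passed the interaction test, Ak1 (adjusted p = 0.00656), and it is named here after its value was seen.

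Among the other CDK inhibitors 1 of 4 fell, Cdkn2c (-0.37 ± 0.057, adjusted p = 1.72e-07), and none rose. Of 12 other cyclins and CDKs 4 rose and 3 fell. Cdk6, a partner of cyclin D, rose by 0.26 ± 0.033 (1.15e-09) and Ccnd3 by 0.09 ± 0.022 (0.000251), while Ccne1, cyclin E1, fell by 0.56 ± 0.15 (0.00154) and Ccnd2 by 0.14 ± 0.032 (0.000269) on the log2 scale. The level of Ccne1 was low, with a mean of 0.607 CPM. Neither of the other D cyclins moved as far as Ccnd1. Of the CDC25 phosphatases, which oppose WEE1, and its sister kinase PKMYT1, 1 of 3 rose, Cdc25a (0.15 ± 0.04, 0.00131), which also passed the interaction test (adjusted p = 0.0295). None of the 3 other GADD45 genes passed.

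In the MYC network 3 of 11 rose and 2 fell. Mycn, a paralog of Myc, rose by 0.54 ± 0.097 (adjusted p = 5.08e-06) and Mnt, a MAX partner that opposes MYC, by 0.17 ± 0.055 (0.00829), while Mlx fell by 0.29 ± 0.02 (1.61e-18) and Mxd1 by 0.16 ± 0.04 (0.000722). Of 12 RB and E2F genes 5 rose and 1 fell, with E2f2 at 0.28 ± 0.066 (0.000316), Rbl1 at 0.25 ± 0.034 (1.73e-08) and E2f6 at -0.11 ± 0.023 (0.00011). Of 16 proliferation markers 5 rose and 4 fell. The replication licensing genes Mcm4 and Mcm2 both rose by 0.33 (SE 0.04 and 0.037, adjusted p = 3.38e-10 and 4.14e-11), and the mitotic genes Bub1 and Birc5 fell by 0.43 ± 0.15 (0.0181) and 0.38 ± 0.13 (0.01). Bub1 and Birc5 were at low levels, with means of 0.724 and 1.46 CPM. The summed level of the 16 markers was 83.5 to 136 CPM in controls and 91.1 to 133 CPM in cKOt mice. Among 19 core clock genes 7 rose and 9 fell, from -2.63 ± 0.16 for Ciart and -1.99 ± 0.058 for Nr1d2 to 1.56 ± 0.045 for Cry1 and 3.45 ± 0.10 for Npas2, and 14 passed the interaction test.

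**Figure D4:**
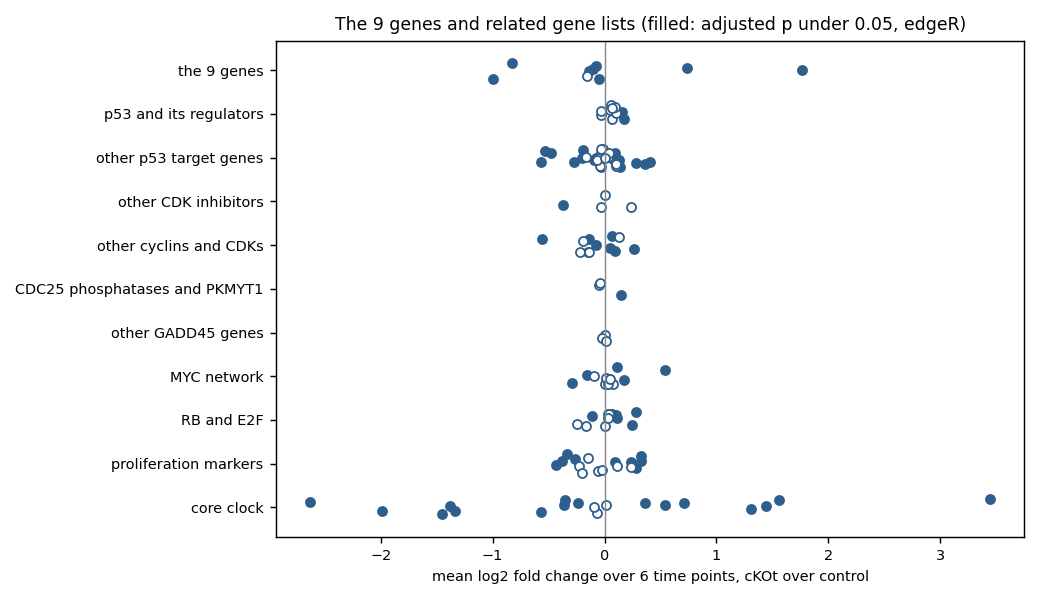
Mean log2 fold change over the 6 time points, cKOt over control (x axis), of the 9 genes and of the genes in 10 related lists (rows; 1 point per gene, vertical offset for display only); filled points passed an adjusted p of 0.05. Outside the core clock, which spans -2.63 to 3.45, the listed genes lie between -0.57 and 0.54, inside the span from Ccnd1 (-1.0) to Cdkn1a (1.77).

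Markers of other cells moved with genotype as well. All 6 endothelial markers tested, 5 of 6 fibroblast and pericyte markers and 6 of 7 macrophage markers were lower in cKOt kidneys, where 23.2% of all genes were lower, and their summed levels were 409 to 517, 70.6 to 268 and 155 to 302 CPM in controls and 370 to 469, 91.3 to 229 and 133 to 221 CPM in cKOt mice. Of B and T cell markers 1 of 1 and 2 of 3 were lower, with sums up to 0.879 and 4.10 CPM in controls and 1.01 and 2.73 CPM in cKOt mice. Proximal tubule markers split into 3 higher and 4 lower of 8 (sums of 10500 to 14100 and 9730 to 14800 CPM). Those of the thick ascending limb split into 4 and 1 of 5 (3130 to 5930 and 3850 to 5130 CPM), of the distal convoluted tubule into 2 and 0 of 3 (895 to 1300 and 999 to 1400 CPM), of the collecting duct into 4 and 2 of 7 (273 to 416 and 261 to 367 CPM) and of podocytes into 1 and 0 of 5 (285 to 419 and 295 to 395 CPM). Of 8 tubular injury markers tested 3 were higher and 2 lower, with sums of 654 to 1080 and 658 to 1220 CPM. The part of these shifts in the results for the 9 genes was not tested.

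Among mice of the same group, some of the 9 genes varied together. Residuals of log2 CPM from the group means were correlated over 60 mice for all 36 pairs, with p from 100000 permutations within groups, and 5 pairs passed (adjusted p = 0.036 for each by Pearson r and 0.028 by Spearman rho). They were Cdkn1b with Ccng1 (r = 0.42, rho = 0.42, permutation p = 0.0028 and 0.0029), Wee1 with Mdm2 (0.41 and 0.41, p = 0.0032 and 0.0032) and Cdkn1b with Trp53inp1 (0.40 and 0.41, p = 0.005 and 0.0038). The others were Gadd45a with Trp53inp1 (0.40 and 0.42, permutation p = 0.003 and 0.0021) and Ccng1 with Trp53inp1 (0.37 and 0.43, p = 0.0047 and 0.0016). Without the 2 mice farthest from the median, r was 0.32, 0.35, 0.39, 0.43 and 0.38 for these pairs. Leaving out each replicate number moved 2 of them most, Cdkn1b with Ccng1 to 0.25 without replicate 4, and Gadd45a with Trp53inp1 to 0.25 without replicate 5 and 0.54 without replicate 1. Within batches of 9 to 12 mice it was positive in 4, 4, 5, 5 and 5 of 6. After removal of the RUVs factors it was 0.15, 0.30, 0.13, 0.49 and 0.08, lower than before for 4 of the 5 pairs. Cdkn1a was in none of the 5 pairs. Its r with Ccng1 was 0.22 (adjusted p = 0.28 by permutation) and 0.50 after removal of the factors, and with Mdm2 it was 0.20 after removal.

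Genes with the most similar pattern were sought by Pearson r over the 12 group means of log2 CPM, as a description. For Cdkn1a they were Ddhd1 and Wsb1 (both r = 0.982), for Wee1 Invs (0.962) and Mbd1 (0.960), for Ccnd1 Adgrl1 (0.981) and Il10rb (0.980) and for Myc Nectin1 (0.933) and Zfp36l1 (0.905). For the 5 genes with small differences they were Hbs1l (0.956) and Aftph (0.940) for Mdm2, Brip1os (0.912) and Oxct1 (0.903) for Ccng1, Bcap31 (0.896) and Zfp367 (0.893) for Trp53inp1, Srp19 (0.856) and Rer1 (0.822) for Gadd45a, and D130020L05Rik (0.852) and Tomm6os (0.844) for Cdkn1b. No gene of the 9 was among the 2 most similar genes of another.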

How the data were processed

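RNA was measured by stranded poly(A) sequencing of 60 kidneys. The deposited files hold raw read counts per gene, which the authors made with cutadapt 1.8, STAR 2.5.3a and HTSeq 0.9.1 on GRCm38, per the labels. The rows for reads in no gene (7.17 to 10.6%) and in more than 1 gene (0.953 to 1.27%) were left out, as was every other row that names no gene. The total behind these shares does not include reads that aligned to more than 1 place. The 5 mice per group were chosen by the authors from 6, partly by their distance from other samples, which narrows the spread between mice.

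Counts were scaled by TMM. The 15546 genes that reached 1 CPM in 1 or more samples were tested with the quasi-likelihood F test of edgeR 4.0.16 in R 4.3.3, in 1 fit of 12 groups with 2 RUVs factors (unwanted variation estimated from mice of the same group, by an implementation written here). P-values were adjusted over all tested genes by Benjamini-Hochberg, with a threshold of 0.05. CPM values in the text are scaled by TMM and not corrected for the RUVs factors. Rhythm models followed the dryR scheme on log2 CPM (prior count 2) corrected for the 2 factors. Correlations used 100000 permutations. Scripts were tested on simulated data. Alternatives were DESeq2 1.42.0 (size factors and test), limma 3.58.1, 2 other filters, no RUVs factors, library batch, the replicate number as a block, and each replicate left out. The replicate numbers did not pair the samples: residuals of same-numbered mice correlated at 0.00433 on average and those of different numbers at -0.00103.

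The members and lists were chosen with earlier results of these data known. Named genes are the 9 members, Arntl, the 2 most similar genes by r over group means among genes of at least 1 CPM, and from each pathway list up to 2 genes per direction with the largest called changes. Trp53, Ak1 and the genes that overlap Ccnd1 and Gadd45a are named outside this rule, after their values were seen. Exon coordinates and lengths are those of GENCODE M21 on GRCm38.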

Additional observations from a re-analysis of the deposited data

Results flagged for a closer look

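The genotype difference varied between time points for Cdkn1a (adjusted p of the interaction 7.65e-05), Myc (0.000139) and Wee1 (0.00015), by the edgeR test of the difference itself. Wee1 and Cdkn1a kept their direction at all 6 time points, whereas Myc ran from 2.08 at ZT12 to -0.70 at ZT20 (log2 fold change), the latter not passing by itself.

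Single mice stood apart from the other 4 of their group (Dixon's ratio above 0.71) in 11 of 108 groups tested, where chance flags about 1 in 20. For Wee1 they were the highest mouse of control ZT4 at 25.2 CPM, of cKOt ZT4 at 13.1 CPM and of cKOt ZT12 at 19.6 CPM. For Ccng1 they were the highest mouse of control ZT16 at 344 CPM and of cKOt ZT12 at 331 CPM, and for Mdm2 the highest of cKOt ZT4 at 66.6 CPM and the lowest of cKOt ZT12 at 58.2 CPM. The others were the highest Gadd45a value of control ZT20 at 24.9 CPM, the highest Myc value of cKOt ZT8 at 16.9 CPM, the lowest Trp53inp1 value of control ZT12 at 52.1 CPM and the highest Trp53inp1 value of cKOt ZT4 at 118 CPM. At cKOt ZT4 the flagged values of Wee1, Mdm2 and Trp53inp1 came from the same mouse, replicate 5.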

How the results depend on the processing

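No result changed direction. The mean differences of Cdkn1a, Myc, Wee1 and Ccnd1 and the 3 interaction calls held under every alternative. Of the 9 genes, 5 passed in the mean without RUVs factors and 5 with library batch in their place, against 8. Over all genes, these same 2 settings gave 263 and 312 interaction calls (479 in the fit reported), 983 and 1130 at ZT0 (1884), 2013 and 1991 at ZT8 (3092), 1855 and 1829 at ZT16 (3072) and 1407 and 1420 at ZT20 (2140), and library batch gave 3091 at ZT4 (1950). Leaving out each replicate number, or the library marked for removal alone, gave 233 to 498 interaction calls, 2608 to 4077 time course calls in cKOt mice (4143), 1 to 6 of the 9 genes with a time course in cKOt mice (5), 3 to 5 at ZT16 (5) and 2 to 5 in a rhythmic model (5), the low values falling without replicate 4 for the first 2, replicates 3 and 4, replicates 1 and 4, and replicate 1. The highest of the first 3 ranges came without the marked library alone, and leaving out a replicate number gave at most 429, 3374 and 5. At ZT16, 2232 to 2853 of all genes passed when a replicate number or the marked library was left out, against 3072. A weight of 0.8 left 2 genes in a rhythmic model, and no RUVs correction left 3. The causes were not tested. Among the 9 genes, depth limits Myc and Cdkn1a most, with 29 and 30 counts in the lowest library.

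With the replicate number as a block, 8 of the 9 genes passed in the mean and 6 in the time course of cKOt mice, where Ccng1 passed (adjusted p = 0.0276). The block changed no other call of the 9 genes, though Trp53inp1 was then left unassigned among the rhythm models. Over all genes it gave 7735 calls in the mean (7778) and 4114 in the time course of cKOt mice (4143). The numbers do not pair the mice.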
